A study of Mus musculus with 4 samples.

Results

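The 9 genes described here encode dual-specificity MAP kinase phosphatases: Dusp1, Dusp2, Dusp4, Dusp5, Dusp6, Dusp7, Dusp8, Dusp10 and Dusp16. They were chosen by symbol from the 55536 annotated genes of the deposited tables, by a rule that uses no measured value although earlier results of these data were known, and all 9 were found. Polyadenylated RNA came from bone marrow-derived macrophages of the C57BL/6J mouse strain, stimulated for 60 minutes at a dose of 100 ng/mL. The agent is lipid A in one label field and lipoprotein A in others, and is called the stimulus. All 4 libraries belong to this 1 group, are numbered as biological replicates 1 to 4, and carry the same donor label. Separate animals or cultures are not stated, so the spread between them may be technical. No unstimulated cells were analysed here, so no value measures a response to the stimulus.

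MAP kinases are switched on by phosphorylation of a threonine and a tyrosine in their activation loop, and the dual-specificity phosphatases remove both phosphates. The inducible nuclear enzymes Dusp1, Dusp2, Dusp4 and Dusp5 are encoded by early-response genes. Dusp6 and Dusp7 are cytoplasmic and act mainly on the kinase ERK, while Dusp8, Dusp10 and Dusp16 act mainly on the stress-activated kinases JNK and p38. In macrophages Dusp1 is best known as a brake on p38 and JNK that limits cytokine production after contact with bacterial products.

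Promoter letters are shown for Dusp1, the member with the highest level, and for Dusp5 and Dusp6. Counts scaled to library size had the smallest range over libraries in Dusp5 and the widest in Dusp6. RefSeq promoters on GRCm38.p6 were matched for 8 of the 9 members, all but Dusp4, and motifs were searched on both strands of the 250 bases before each start. The lines that follow give the part of each window that precedes any annotated exon of the gene within it, 5′ to 3′, with motif matches in capitals. Of the 250 bases, 203 are shown for Dusp1 and 214 for Dusp5, so the last bases of these windows are missing. Positions given below count from the RefSeq start, where each full window ends.
Dusp1 (chr17:26508520-26508722, minus strand): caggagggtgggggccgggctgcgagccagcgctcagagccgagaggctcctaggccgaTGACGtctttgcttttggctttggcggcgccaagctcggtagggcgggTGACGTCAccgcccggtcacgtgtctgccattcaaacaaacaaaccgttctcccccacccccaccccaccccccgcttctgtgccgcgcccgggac
Dusp5 (chr19:53528895-53529108, plus strand): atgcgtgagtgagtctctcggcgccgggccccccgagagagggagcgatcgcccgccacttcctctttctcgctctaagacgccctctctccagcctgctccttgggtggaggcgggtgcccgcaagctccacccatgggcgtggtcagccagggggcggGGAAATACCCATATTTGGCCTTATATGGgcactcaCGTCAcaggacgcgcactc
Dusp6 (chr10:99262981-99263230, plus strand): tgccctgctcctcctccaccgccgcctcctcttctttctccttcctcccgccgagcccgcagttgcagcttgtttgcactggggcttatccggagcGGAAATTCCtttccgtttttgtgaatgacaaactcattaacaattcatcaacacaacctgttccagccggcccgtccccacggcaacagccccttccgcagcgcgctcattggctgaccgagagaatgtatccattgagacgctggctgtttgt

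The full cyclic AMP response element TGACGTCA stood 143 bases before the start of Dusp1. It was also found at 107 and 63 bases before the RefSeq start of Dusp8, and in 1.55% of the 32851 promoters. The Dusp8 window (chr7:142095285-142095534) lies inside the gene as annotated by GENCODE M21, whose start is farther upstream, so its letters are not shown. Its core TGACG, which the full element contains on both strands, was present in 4 of the 8 member promoters (Dusp1, Dusp5, Dusp8 and Dusp16) and in 17.8% of all promoters. GGNNTTTCC, a short form of the NF-κB site, was matched on the minus strand 154 bases before the Dusp6 start and 90 bases before the Dusp5 start, and in 4.93% of all promoters. The serum response factor site, known as the CArG box, was found at 82 and 72 bases before the Dusp5 start, where the first overlaps the NF-κB match by 1 letter, and in 1.47% of all promoters. This last motif was added after the Dusp5 letters had been read. No member window held the AP-1 letters TGANTCA (6.75% of all promoters), the EGR letters GCGTGGGCG (0.536%), the ETS letters CCGGAAG (6.91%) or TATAAA (12.4%). The member windows had a median GC content of 68.4%, against 52.4% over all promoters. Each match is a description of letters only.

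The family's RNA was mostly that of nuclear inducible members, and mostly Dusp1. Levels are in TPM, transcript numbers scaled for gene length and for library depth, so they can be compared between genes. Summed over the 9 members, the level was 1314.75, 1600.57, 1211.22 and 1436.98 TPM in replicates 1 to 4 (1391 ± 168 TPM, SD, n = 4). The 4 nuclear members made up 92.0%, 96.0%, 94.5% and 96.2% of that sum. The ERK-selective pair made up 5.66%, 2.13%, 3.54% and 1.83%, and the 3 JNK and p38-selective members 2.34%, 1.91%, 1.96% and 1.94%. Replicate 1 thus had the lowest nuclear share and the highest shares of both other groups. Of the 9 members, 8 were at 1 TPM or more in every library, against 43.8% of 22028 protein-coding genes. The median of the members' mean levels was 36.5 TPM, against 17.8 TPM for protein-coding genes at 1 TPM or more in every library.

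**Figure D1:**
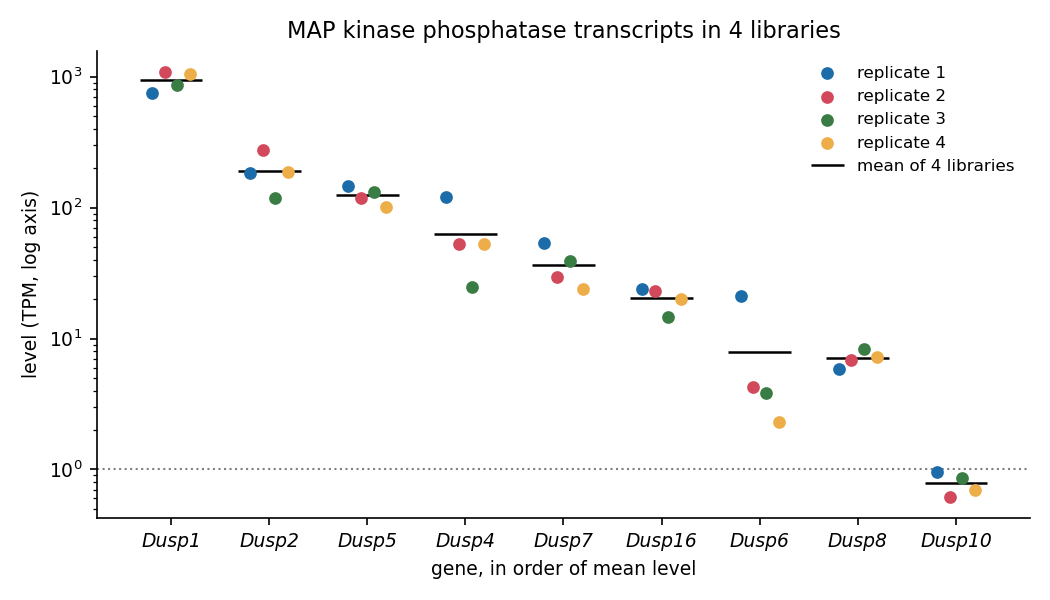
Level of each member in each library, in TPM on a log axis, ordered by the mean of the 4 libraries (black lines), with 1 point per library and a dotted line at 1 TPM. Dusp1 lies above all other members in every library, between 757.55 and 1087.28 TPM, and Dusp10 lies below 1 TPM in every library.

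The libraries held 26917288 to 39438391 gene counts, and their overall RNA make-up differed. Ribosomal RNA took 12.4% of counts in replicate 1 and 3.43% to 7.28% in the others. All 9 macrophage markers were at 1 TPM or more in every library, with summed levels of 20199 to 35566 TPM. Markers of B cells, T and NK cells, mast cells, stromal cells and dendritic cells summed to at most 3.22 TPM in any library, with Mcpt4 at 0 throughout. Markers of neutrophils and their precursors (4 of 7 at 1 TPM or more in every library) summed to 197.94, 108.03, 727.58 and 69.0 TPM. Markers of dividing cells (4 of 4) summed to 213.2, 68.02, 89.83 and 53.03 TPM. Replicate 3 was therefore highest for the neutrophil list and replicate 1 for the dividing-cell list. In such bulk RNA, fewer cells of a type and less RNA per cell cannot be told apart.

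Whether a gene differed between libraries by more than counting error was tested with a chi-square test of homogeneity on its 4 counts, adjusted over 12626 genes. A gene was called variable where the adjusted p was under 0.05 and its highest scaled count was at least 2-fold its lowest. Scaled counts are counts divided by edgeR's library sizes. This test sets libraries against counting error only, and reads without molecular identifiers are not independent molecules. By it, 4 of 9 members (44.4%) were called variable, namely Dusp2, Dusp4, Dusp6 and Dusp7, against 33.0% of all tested genes. By the adjusted p alone, 8 of 9 members passed (all but Dusp10), against 88.6% of tested genes, so passing alone did not set the members apart. The deposited credibility intervals of the highest and lowest library were apart in 8 of 9 members, against 77.5% of 10250 genes at 1 TPM or more in every library. The exception, Dusp10, was below 1 TPM in every library and so lay outside that background. The median range between libraries was 1.57-fold over the 9 members and 1.68-fold over all tested genes.

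Dusp1 (ENSMUSG00000024190.7; chr17:26505590-26562128, minus strand, mm10) had 757.55, 1087.28, 869.09 and 1043.81 TPM in replicates 1 to 4 (939.4 ± 154 TPM, SD, n = 4). Replicates 2 and 4 were the high ones and replicate 1 the lowest. In the second quantification, made straight from the reads, Dusp1 had 508.7, 688.2, 748.7 and 837.9 TPM. Replicate 1 was lowest there too, but replicates 3 and 4 were the high ones, so this order depended on the method. Its mean placed it at rank 130 of 22028 protein-coding genes. The range of its scaled counts was 1.48-fold, wider than in 35.0% of tested genes, and it was not called variable. In each library Dusp1 was the largest single contributor, at 57.6%, 67.9%, 71.8% and 72.6% of the family sum. Its level exceeded that of Dusp2, the next in order, by 2.34 ± 0.42 log2 units (SD, n = 4), and the ranges of the pair did not overlap.

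Dusp2 (ENSMUSG00000027368.6; chr2:127336159-127338376, plus strand) encodes a nuclear phosphatase known from activated immune cells. It had 184.1, 276.47, 119.26 and 185.74 TPM (191.4 ± 64.6 TPM, SD, n = 4). Replicate 2 was highest and replicate 3 lowest, and the 2.28-fold range of scaled counts was called variable. The call rested on both extremes, since the range was 1.58-fold without replicate 2 and 1.51-fold without replicate 3. Replicate 3 was also the library with the highest sum of neutrophil markers, 727.58 TPM, whose part in the result was not tested.

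Dusp4 (ENSMUSG00000031530.6; chr8:34807297-34819894, plus strand), a nuclear phosphatase of ERK, JNK and p38, had 121.46, 53.0, 24.61 and 52.76 TPM (62.96 ± 41.2 TPM, SD, n = 4). Replicate 1 stood well above the others, replicates 2 and 4 were nearly equal, and replicate 3 was low. The 4.56-fold range of scaled counts was wider than in 91.7% of tested genes. Dusp4 was the only member called variable with any 1 library left out, with a range of 2.17-fold without replicate 1 and 2.24-fold without replicate 3.

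Dusp5 (ENSMUSG00000034765.6; chr19:53529109-53542431, plus strand), a nuclear phosphatase that acts on ERK, had 146.43, 119.15, 131.58 and 100.55 TPM (124.4 ± 19.4 TPM, SD, n = 4). It had the smallest range of the 9 members, 1.33-fold in scaled counts (adjusted chi-square p = 2.03e-69), and was not called variable. By this measure the nuclear members ran from the steadiest member of the family to one of its most uneven. In TPM the ranges of Dusp8 (1.42-fold) and Dusp1 (1.44-fold) were smaller than that of Dusp5 (1.46-fold). In the second quantification the scaled ranges were 1.40-fold for Dusp1, 1.45-fold for Dusp8 and 1.48-fold for Dusp5. Dusp2 exceeded Dusp5 in 3 of 4 libraries, by 0.57 ± 0.60 log2 units (SD, n = 4), so their order did not hold beyond the spread. Dusp5 exceeded Dusp4 in 4 of 4 libraries, by 1.19 ± 0.90 log2 units, with ranges that overlapped.

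Dusp6 (ENSMUSG00000019960.8; chr10:99263231-99267489, plus strand) encodes the cytoplasmic ERK phosphatase that ERK signalling itself is known to induce. It had 21.17, 4.29, 3.86 and 2.32 TPM (7.91 ± 8.88 TPM, SD, n = 4), from counts of 807, 183, 227 and 154. Replicate 1 alone was high, and the other 3 libraries lay close together, so the SD exceeded the mean. The 7.23-fold range of scaled counts (adjusted chi-square p = 1.46e-260) was the widest of the 9 members and wider than in 96.0% of tested genes. Without replicate 1 the mean was 3.49 TPM, the range was 1.55-fold (adjusted chi-square p = 7.57e-05), and the call was lost.

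Dusp7 (ENSMUSG00000053716.9; chr9:106368632-106375724, plus strand), the other cytoplasmic ERK phosphatase, had 53.22, 29.73, 39.05 and 23.97 TPM (36.5 ± 12.8 TPM, SD, n = 4). Replicate 1 was again highest and replicate 4 again lowest, with a 2.07-fold range of scaled counts (adjusted chi-square p = 3.05e-131). The range was 1.30-fold without replicate 1 and 1.63-fold without replicate 4, and in both cases the call was lost. The summed level of Dusp6 and Dusp7 was 74.39, 34.02, 42.91 and 26.29 TPM, so replicate 1 was highest for the pair as for each gene. In the second quantification Dusp7 had 38.3, 21.5, 35.7 and 22.1 TPM. Replicate 1 was still highest there, but replicate 3 was close to it and replicate 2 was lowest.

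**Figure D2:**
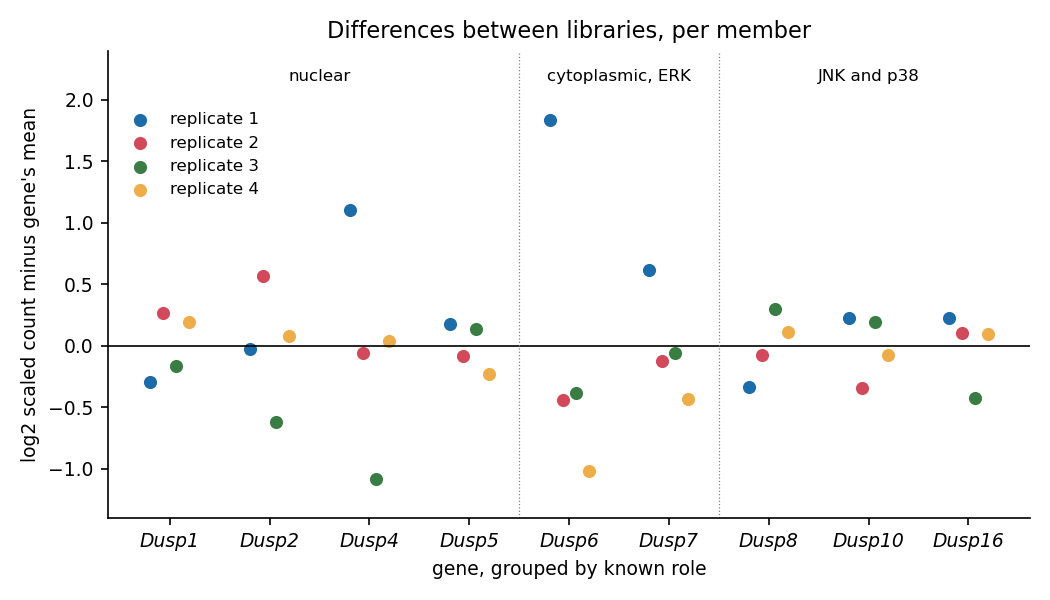
Deviation of each member's log2 scaled count from its own mean over the 4 libraries, with 1 point per library and members grouped by known role. Replicate 1 lies 1.84 log2 units above the mean for Dusp6, 1.11 for Dusp4 and 0.61 for Dusp7, but 0.30 below it for Dusp1 and 0.33 below it for Dusp8.

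Of the 4 members called variable, 3 were highest in replicate 1 (Dusp4, Dusp6 and Dusp7), against 41.3% of all 4167 genes called variable. By scaled counts Dusp5, Dusp10 and Dusp16, which were not called variable, were also highest in replicate 1. In the TPM of the second quantification Dusp5 and Dusp10 were highest in replicate 3 and Dusp16 in replicate 4. Replicate 1 was also the library with the highest sum of dividing-cell markers, 213.2 TPM against 53.03 to 89.83 TPM in the others, and with the highest share of ribosomal RNA. Mcm6 made up 117.89 TPM of the marker sum in replicate 1, 3 of the 4 markers (Mcm6, Top2a and Rrm2) were highest in replicate 1, and Mki67 was highest in replicate 2, at 38.3 TPM in replicate 1 and 49.2 TPM in replicate 2. The part of these markers and of ribosomal RNA in the result was not tested. Without replicate 1, 2 of 9 members were called variable (Dusp2 and Dusp4), against 16.1% of the genes tested. Replicates 1 and 2 were each made from 6 read files and replicates 3 and 4 from 4, and differences were seen within both pairs. Dusp6 differed 4.84-fold between replicates 1 and 2 and 1.55-fold between replicates 3 and 4. Dusp4 differed 2.24-fold and 2.17-fold within the same pairs. Scaled counts of Dusp8 were lower in replicates 1 and 2 than in replicates 3 and 4, and those of Dusp16 were higher, if hardly so between replicates 2 and 4. In both genes this split cannot be told apart from the number of read files.

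Dusp16 (ENSMUSG00000030203.17; chr6:134715468-134792625, minus strand), which acts on JNK and p38, had 24.01, 23.18, 14.56 and 19.89 TPM (20.4 ± 4.29 TPM, SD, n = 4). Replicate 3 was lowest, and the 1.57-fold range of scaled counts (adjusted chi-square p = 2.16e-41) was not called variable. Dusp8 (ENSMUSG00000037887.11; chr7:142079490-142095843, minus strand), another phosphatase of the stress-activated kinases, had 5.86, 6.85, 8.35 and 7.24 TPM (7.08 ± 1.03 TPM, SD, n = 4). Replicate 1 was lowest here, the reverse of Dusp6, and the 1.55-fold range (adjusted chi-square p = 3.99e-14) was not called variable. The 3 JNK and p38-selective members summed to 30.82, 30.65, 23.77 and 27.83 TPM.

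Dusp10 (ENSMUSG00000039384.8; chr1:184013302-184075636, plus strand), a phosphatase of JNK and p38 with known roles in innate immunity of mice, had 0.95, 0.62, 0.86 and 0.70 TPM (0.783 ± 0.150 TPM, SD, n = 4). It was the lowest member in every library. The counts behind those values were 42, 31, 54 and 47, with exact 95% Poisson intervals that together spanned 21.1 to 70.5 counts. The intervals overlapped, and a difference between libraries was not detectable at this depth (1.49-fold range, adjusted chi-square p = 0.287). Dusp9, the remaining gene of the classical family and not among the 9, stood as low, at 0.84, 0.29, 0.57 and 0.63 TPM.

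Judged by ranges over libraries, the order of levels was clear only at its ends. Among the 8 pairs of neighbours in that order, the ranges over libraries did not overlap for Dusp1 over Dusp2 and for Dusp8 over Dusp10, the last by 3.03 ± 0.35 log2 units (SD, n = 4). Dusp7 exceeded Dusp16 in 4 of 4 libraries by 0.80 ± 0.57 log2 units, and Dusp16 exceeded Dusp6 in 4 of 4 by 1.88 ± 1.23 log2 units. Dusp4 exceeded Dusp7 in 3 of 4 libraries by 0.62 ± 0.87 log2 units. Dusp6 had the higher mean level of the pair with Dusp8 but was above it only in replicate 1, with a mean log2 difference of -0.38 ± 1.53 (SD, n = 4). With 4 libraries the exact sign-flip permutation test cannot go below a two-sided p of 1 in 8, and no pair passed it (adjusted p between 0.2 and 0.75 over the 8 pairs).

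Annotated transcripts of Dusp1 were not divided alike in the 4 libraries. The coding transcript Dusp1-202 took 73.9%, 79.0%, 30.6% and 51.0% of the gene's TPM in replicates 1 to 4, and Dusp1-206, also coding, took 24.2%, 16.2%, 64.8% and 44.5%. Replicates 3 and 4 were higher for Dusp1-206 than replicates 1 and 2, a split that follows the number of read files and cannot be told apart from it. In the second quantification, made straight from the reads, Dusp1-206 took 10.8%, 5.55%, 61.9% and 27.9%, so the order of libraries was kept while the shares were smaller. Dusp1-206 lacks a stretch of 355 coding bases in the first exon of Dusp1-202 (chr17:26507957-26508311), and its annotated coding length is 522 bases, against 1101 for Dusp1-202. The missing stretch is not a whole number of codons, and the 2 coding lengths differ by more than its length. That stretch has a GC content of 70.4%, against 54.9% for the whole of Dusp1-202, and uneven read coverage of it cannot be told apart here from use of the junction. The junction that defines Dusp1-206 follows, 20 bases on each side, with the downstream exon in capitals (minus strand of chromosome 17, GENCODE M21 transcript).
Dusp1-206: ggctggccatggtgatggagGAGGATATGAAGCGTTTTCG

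**Figure D3:**
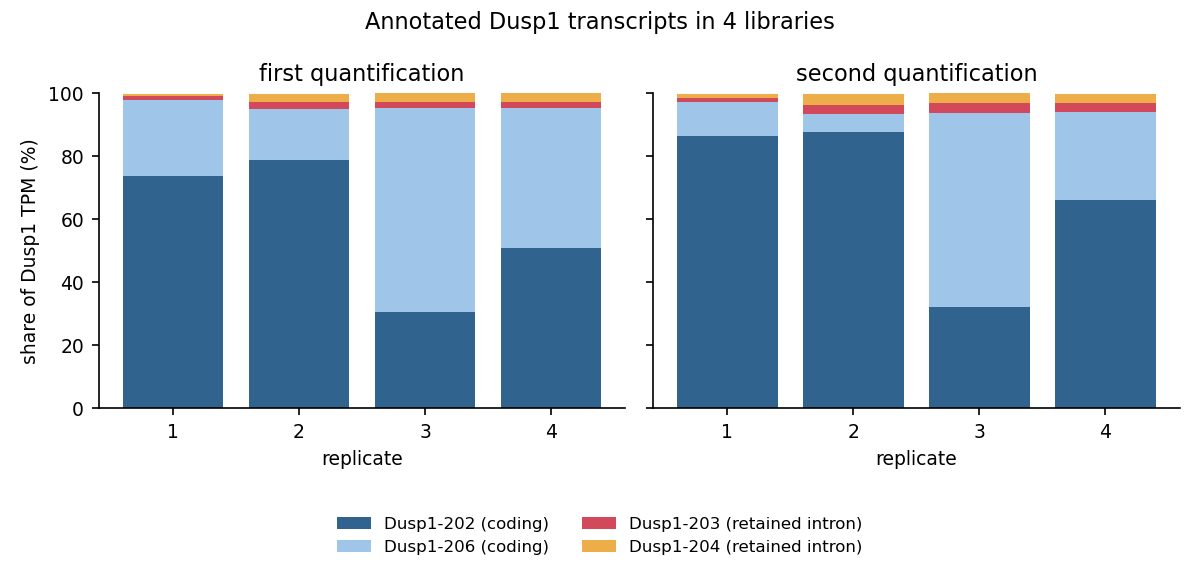
Share of the Dusp1 level, in percent of its TPM, given to each of 4 annotated transcripts in each library, in the first quantification (left) and the second (right), as stacked bars. The coding transcript Dusp1-206 is largest in replicate 3, at 64.8% in the first quantification and 61.9% in the second, and smallest in replicate 2.

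Transcripts with a retained intron were present for both of the highest members. Those of Dusp1 (Dusp1-203 and Dusp1-204) took 1.97%, 4.83%, 4.62% and 4.46% of its TPM in replicates 1 to 4. That of Dusp2 (Dusp2-202) took 4.04%, 7.03%, 11.8% and 7.17% of its TPM. Both shares were lowest in replicate 1 and above the median over 3740 genes with such a transcript annotated and at least 10 TPM in every library, which was 1.13%, 1.58%, 1.49% and 1.34%. The second quantification gave 2.71%, 6.58%, 6.08% and 5.98% for Dusp1 and 5.67%, 8.77%, 13.5% and 8.58% for Dusp2, against medians of 1.78%, 2.67%, 2.27% and 2.01%. As TPM, retained-intron transcripts of Dusp1 stood at 14.92, 52.54, 40.12 and 46.6, so replicate 1 was lowest on that scale too. Dusp16 also has an annotated retained-intron transcript, Dusp16-206. It took 3.42%, 6.26%, 0% and 0% of the TPM of Dusp16 in the first quantification and 9.76%, 10.5%, 0% and 5.76% in the second. The exon ends before the 3 introns follow, 20 bases on each side, with the exon in capitals and the intron in lower case. They mark where a read that crosses into the intron would come from.
Dusp1 intron 2 (chr17:26507205-26507573, minus strand): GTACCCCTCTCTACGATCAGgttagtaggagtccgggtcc
Dusp1 intron 3 (chr17:26506651-26506984, minus strand): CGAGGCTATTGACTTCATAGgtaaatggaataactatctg
Dusp2 intron 2 (chr2:127336899-127337248, plus strand): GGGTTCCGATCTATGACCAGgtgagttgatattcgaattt

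Each of these introns began with GT and ended with AG, and they were 369, 334 and 350 bases long. Dusp4 and Dusp5 each have a single annotated transcript, so all of their level lay on it by construction. Dusp10 had all of its level on Dusp10-201 and none on Dusp10-202, in both quantifications. Dusp7-204, a non-coding transcript of Dusp7, took at most 35.9% of its TPM, in replicate 3, in the first quantification and at most 11.4% in the second, in the same library, so its share depended on the method. Overlapping genes were low, at most 0.35 TPM in any library, except Ergic1 on the strand opposite to Dusp1 (47.1 TPM on average). Ergic1 overlaps only the far upstream end of the Dusp1 locus, which belongs to Dusp1-205, at 0.17 TPM in replicate 1 and 0 in the others, and to Dusp1-201, at 0 in every library.

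The 3′ ends of the messages carried different numbers of ATTTA pentamers, letters found in the AU-rich elements that bind decay factors such as the protein of Zfp36. Dusp1-202 had 4 in 690 bases of 3′ untranslated region, a density higher than in 94.9% of 9420 genes, and Dusp2-201 had 4 in 581 bases, higher than in 96.7%. There were 5 in Dusp8, 3 each in Dusp10 and Dusp16, 2 in Dusp4, 1 each in Dusp5 and Dusp6, and none in Dusp7. At least 1 pentamer was present in 66.8% of the 9420 genes. The longer form TATTTAT occurred 3 times in Dusp1, 2 times in Dusp8 and 1 time in Dusp2, and in 27.7% of genes. Windows of 30 bases from GENCODE M21 transcripts are shown for these 3 genes and, for contrast, for Dusp5 with its 1 pentamer. ATTTA is in capitals, and overlapping copies share a letter.
Dusp1: ggctcatgggagctggtccttATTTATTTA
Dusp2: ttgcagaaattaATTTAattaattaATTTA
Dusp8: aagtaaatatttcgattttttATTTATTTA
Dusp5: ctcggtgaccttggactttggtgtgATTTA

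Genes whose deviations over the libraries lay nearest to those of a member were sought among 2217 variable protein-coding genes that averaged at least 100 counts. Likeness is the root mean square difference, in log2 units over the 4 libraries, between the deviations of the 2 genes. Nearest to Dusp6 were Ctla2b (0.11), Gpr84 (0.18) and Jag1 (0.19), and Ctla2b stood at 329.35, 80.78, 69.76 and 46.38 TPM. Nearest to Dusp4 were Atm (0.079), Dock4 (0.14) and Ssh2 (0.15). Nearest to Dusp7 were Zfp809 (0.022), Atr (0.043) and Dpy30 (0.051). Nearest to Dusp2 were Lyz1 (0.056), H2afj (0.064) and Pcnx3 (0.065), and nearest to Dusp1 were Phf21a (0.16), Apc (0.16) and Ifi213 (0.17). Dusp1 itself was not called variable (1.48-fold range), so genes with a range as small as its own were not among those searched. With 4 points per gene, such likeness is a description of these libraries. Among the members themselves, Dusp5 and Dusp10 were the closest pair (0.16) and Dusp6 and Dusp8 the farthest apart (1.28). The deviations of Dusp10 could not be told from counting error (adjusted chi-square p = 0.287), so its place in that pair is uncertain. The measure also depends on the size of each gene's range, which was widest in Dusp6.

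The substrates of the phosphatases and the kinases that activate them were measured alongside. Of 12 MAP kinase genes 8 were tested and 1 was called variable, Mapk11, which encodes p38 beta and had a range of 4.82-fold at a mean of 0.805 TPM. The highest were Mapk6, an atypical kinase gene, at 154.3 ± 20.0 TPM, and the ERK gene Mapk3 at 117.5 ± 27.4 TPM (SD, n = 4). None of 7 MAP kinase kinase genes was called variable although 7 of 7 passed by the adjusted chi-square p alone, and Map2k3 (73.2 TPM) and Map2k2 (55.7 TPM) were highest. Of 11 upstream kinase genes 3 were called variable, of which Map3k5 (2.47-fold) and Map3k14 (2.36-fold) had the widest ranges, and Araf (38.8 TPM) and Map3k3 (35.9 TPM) were highest. These shares of 1 in 8, 0 in 7 and 3 in 11 stood beside 33.0% of all tested genes.

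Other feedback inhibitors that ERK signalling is known to induce were also measured. Of 8 other ERK feedback genes 7 were tested and 5 were called variable (71.4%, against 33.0% of all tested genes). Of these 5, 4 were highest in replicate 1, against 41.3% of all called genes. Spred1, an inhibitor of Raf activation, had 93.38, 44.13, 42.69 and 41.11 TPM, so that replicate 1 alone was high, as for Dusp6. Spry1, encoding a Sprouty inhibitor, had 6.17, 3.8, 2.06 and 2.65 TPM and a range of 2.79-fold, while Spry3 had the widest range, 5.68-fold, at 0.08, 0.29, 0.14 and 0.43 TPM, and was lowest in replicate 1. Errfi1, the highest of the list at 365.8 ± 52.0 TPM (SD, n = 4), was not called variable. Without replicate 1, 1 gene of this list was called variable, against 16.1% of all genes tested.

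**Figure D4:**
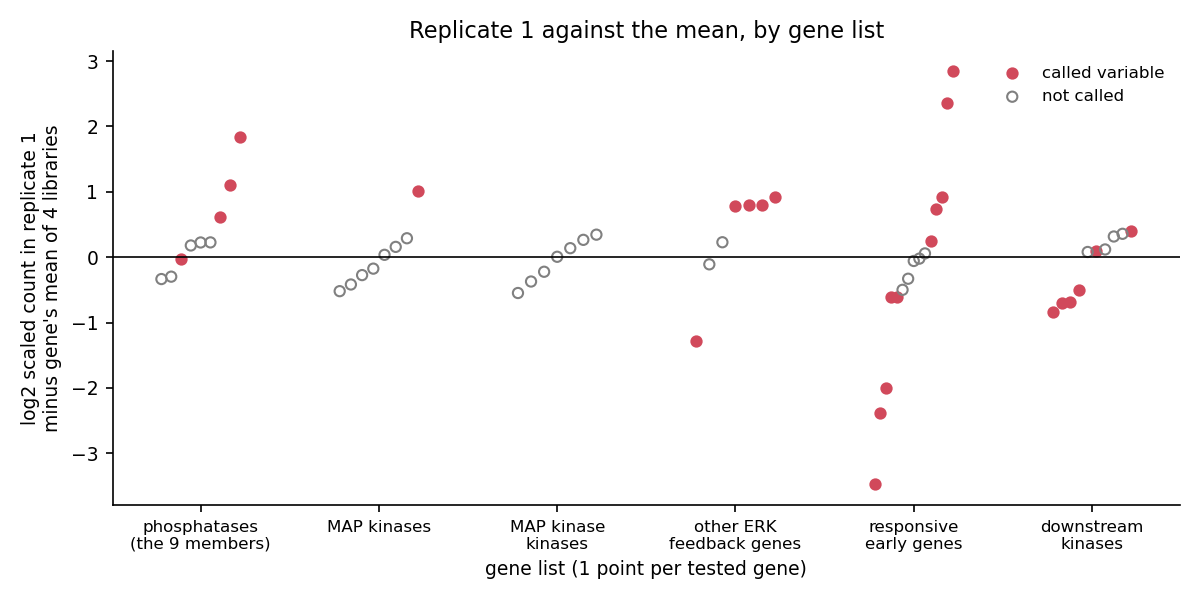
Log2 scaled count in replicate 1 minus the gene's mean over the 4 libraries, with 1 point per tested gene in 6 gene lists, filled where the gene was called variable. The 3 highest phosphatase points are Dusp6, Dusp4 and Dusp7, 4 of 5 variable ERK feedback genes lie above 0, and variable early genes lie on both sides.

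Of 16 MAP kinase-responsive early genes 15 were tested and 10 were called variable (66.7%, against 33.0% of all tested genes). Of these 10, 4 were highest in replicate 1, 3 in replicate 2 and 3 in replicate 4, against 41.3% of all called genes highest in replicate 1. Junb (1000.4 TPM) and Atf3 (708.2 TPM) were highest. The widest ranges were those of Fosb, at 2.43, 56.61, 47.47 and 74.32 TPM, and of Fosl1, at 2.92, 0.41, 0.20 and 0.08 TPM. These AP-1 genes ran opposite ways, Fosb being lowest and Fosl1 highest in replicate 1. Etv5, an ERK-responsive ETS factor gene named after its values were seen, had 61.82, 5.13, 7.57 and 7.37 TPM, so that it too was highest in replicate 1. Of the called genes Fosb, Egr3, Ier2, Atf3 and Nr4a1 were lowest in replicate 1. Egr3 had 4.24, 45.2, 33.42 and 24.33 TPM, and Nr4a1 had 43.23, 362.48, 143.48 and 361.37 TPM. Without replicate 1, 3 genes of this list were called variable, against 16.1% of all genes tested.

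Kinases downstream of the MAP kinases were called variable in 6 of 10 cases, against 33.0% of all tested genes. Of these 6, 1 was highest in replicate 1, against 41.3% of all called genes. Mapkapk2, a p38 target whose product stabilises cytokine messages, was highest at 291.8 TPM and had a range of 2.47-fold, and Mknk1 (70.4 TPM) had a range of 2.5-fold. Both were lowest in replicate 1, like Dusp1 and unlike Dusp6. Of 10 targets of cyclic AMP and glucocorticoid signalling, which are known inducers of Dusp1, 6 were called variable, against 33.0% of all tested genes. Zfp36 (1453.7 TPM) and Pde4b (189.9 TPM) were highest, Nr4a3 had the widest range at 5.99-fold, and Fkbp5 followed at 4.89-fold. Of the 6 called genes, 1 was highest in replicate 1, 3 in replicate 2 and 2 in replicate 4, against 41.3% of all called genes highest in replicate 1. By scaled counts every gene of this list but Fkbp5 was lowest in replicate 1. The share of all tested genes lowest in that library was not counted. Nr4a3 had 1.44 TPM in replicate 1 against 3.13 to 7.93 TPM in the others. Fkbp5 was highest in replicate 1, at 12.55 TPM against 2.33 to 3.25 TPM.

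Other phosphatases stood at moderate levels. Of 20 further dual-specificity phosphatase genes 15 were tested and 6 were called variable (40.0%, against 33.0% of all tested genes), and among these 6 the ranges of Ssh2 (4.60-fold) and Dusp28 (3.03-fold) were widest. Dusp3, encoding a small nuclear phosphatase of ERK and JNK, was the highest of this list at 97.8 ± 10.8 TPM (SD, n = 4), between the means of Dusp5 and Dusp4, followed by the cofilin phosphatase gene Ssh3 at 33.4 ± 10.8 TPM. Dusp15, Dusp21 and Dusp26 had 0 counts in every library. Of 8 phosphatase genes of other classes that act on MAP kinases, 6 were tested and 1 was called variable (16.7%, against the same 33.0%), Ptpn7, with 30.36, 12.17, 12.61 and 16.07 TPM. Ppm1a (62.1 TPM) and Ppp2cb (48.2 TPM) were the highest of that list. All of these lie below Dusp1 in level, and none but Dusp3 reached the mean of Dusp4.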

How the data were processed

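Polyadenylated RNA of 4 macrophage libraries was analysed from 1 gene table and 2 transcript tables each, with build mm10 and annotation GENCODE M21 named in the deposited file lists. The authors deposited expected counts and TPM (maximum likelihood, and posterior mean with a credibility interval) from transcriptome alignments, and estimated counts and tpm straight from the reads (the second quantification). Interval bounds, a signal never below 0 per the file headers, sit around the posterior mean TPM, not around the TPM printed. The quantification tools, their versions and the use of strand were not given in the sources used here, so reads of overlapping genes on opposite strands cannot be told apart.

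Expected counts were rounded. Genes averaging at least 10 counts were tested by a chi-square test (SciPy 1.17.1) against TMM library sizes (edgeR 4.0.16), with Benjamini-Hochberg adjustment; where the adjusted p underflowed to 0 it is not printed. The test was checked on simulated counts. Level differences used log2(TPM + 0.1). DESeq2 1.42.0 size factors were an alternative. Named genes were all 9 members, the 2 highest and 2 widest variable genes of each list, genes of a list at 0 counts throughout, and the 3 genes most like each variable member and Dusp1. Etv5, Egr3, Ier2 and Nr4a1 were named after their values were seen. The members and lists were chosen with earlier results of these data known.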

Additional observations from a re-analysis of the deposited data

Results flagged for a closer look

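Dusp6 in replicate 1, at 21.17 TPM, lay far from the other 3 libraries, which held 4.29, 3.86 and 2.32 TPM. Its gap to the nearest of them was 0.895 of the whole range, above Dixon's 95% critical value for 4 samples. Chance alone marks about 1 in 20 groups in this way, and no other member was marked. The share of all tested genes marked in this way was not counted. Replicate 1 was the highest library in 41.3% of all genes called variable, so the mark does not set Dusp6 apart from other genes. Deposited intervals around the posterior mean did not meet, at 17.6 to 22.3 TPM in replicate 1 and 3.43 to 5.42 TPM in replicate 2. In the second quantification Dusp6 stood at 15.4, 3.27, 3.31 and 2.22 TPM in replicates 1 to 4, so replicate 1 was highest there as well.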

How the results depend on the processing

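The count of 4 members called variable was the same with DESeq2 size factors, plain totals, no filter on low counts and the second quantification. With a 1.5-fold range 6 members and 58.2% of tested genes were called, and with no minimum range 8 members and 88.6%. Leaving out 1 library at a time gave 2 to 3 members and 16.1% to 29.2% of genes, lowest without replicate 1. The nuclear sum was 982.9 TPM in the second quantification and 1620.3 TPM when rescaled to nuclear-encoded protein-coding genes, and the JNK and p38 sum 22.3 and 34.8 TPM. Rescaling divides by fewer genes by construction, and for the second quantification the cause was not tested. Dusp6 over Dusp8 lay between -1.12 and 0.026 log2 units with 1 library left out, and only without replicate 4 was it above 0 (0.026). Replicate 4 held the lowest single difference, -1.60 log2 units (Dusp6 2.32 TPM, Dusp8 7.24 TPM), whose cause was not tested. No paired analysis was possible because all libraries form 1 group. Levels of the lowest members are limited by counts, 31 to 54 for Dusp10. With 1 group and 1 donor label, neither a response nor a spread between animals can be measured.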
